A study of Mus musculus with 4 samples.

Results

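Ier2, Ier3 and Btg2 are immediate early response genes, and the values described here are those of every probe set annotated to one of them. That gave 4 probe sets, 1 each for Ier2 and Ier3 and 2 for Btg2, of 45101 on the array. The 3 genes were among 18193 named genes, of which 16269 were analysed. They were put together because of their signals on these same arrays (higher at 0.5 h of tumour necrosis factor, TNF, then a return to or below the basal level for Ier2 and Btg2 and a maintained level for Ier3), so their ratios are given as a description with 0 tests.

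The cells belonged to an immortal 3T3 fibroblast line from mouse embryos, which divides in serum. All 4 groups were cells held overnight in 0.5% serum; 1 group was then harvested as basal cells, and the others received TNF, a cytokine of inflammation, over 0.5, 2 or 12 h. The labels give 10 ng/ml of TNF at 0.5 and 12 h, while the protocol of the 2 h sample repeats the basal one and gives no dose, and its title and source name place it at 2 h of TNF. Each group was 1 array of RNA from 1 cell line, so no spread between replicates exists, and the series as described in the labels has no array of cells left without TNF for the same times. Added time in low serum and TNF therefore cannot be told apart in any comparison with basal cells.

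Immediate early genes are transcribed within minutes of a stimulus, from factors already in the cell and without new protein. Their transcripts are as a rule short-lived, so the RNA level drops again soon after transcription slows. TNF reaches them through NF-kB, which is released from its IkB inhibitors, and through MAP kinases acting on SRF, its cofactors and AP-1. Ier3 encodes a stress-inducible protein that modulates cell survival and is a known NF-kB target. Ier2 encodes a short-lived nuclear protein induced by growth factors. Btg2 encodes an antiproliferative protein that binds the CCR4-NOT deadenylase and is a known p53 target.

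The median signal of an array went from 22.1 in basal cells to 21.3, 20.7 and 19.9 at 0.5, 2 and 12 h, and the median log2 ratio to basal over the 16269 genes was -0.03, -0.09 and -0.14. Ratios to basal given without scaling include this shift. Among fibroblast markers, Col1a1, Col1a2, Col3a1, Fn1, Vim, Pdgfrb and S100a4 were above a signal of 102 on every array, Fap lay at the floor (9.08, the 30th percentile of all values) throughout, and Thy1, Lum and Dcn were weak. Pdgfra went from 69.7 to 94.8, 121 and 95.4. Lum was at least 2-fold above basal at 0.5 and 12 h, and Dcn at least 2-fold below it at 0.5 and 2 h. With signals raised to 102, 8 of the markers were analysed and 0 passed 2-fold. The summed signal of the 12 fibroblast markers ranged from 34871 to 36147 over the arrays, a sum to which the weak markers add little. That of 9 macrophage and leukocyte markers ranged from 158 to 174, with Ptprc, Itgam and Cd3e at the floor on all arrays; that of 6 endothelial markers from 53.1 to 78.5, with Vwf at the floor; and that of 6 epithelial markers from 105 to 133. The 4 adipocyte markers summed to between 1467 and 1905, nearly all of it Fabp4.

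Ier3 had the largest response of the 3 genes at 0.5 h. Its probe set (1419647_a_at) gave a signal of 1032 in basal cells, then 4064 after 0.5 h, 2431 after 2 h and 1702 after 12 h. The basal array was the lowest of the 4, and each TNF array was lower than the TNF array before it. The signal was 3.94-fold above basal after 0.5 h, 2.36-fold after 2 h and 1.65-fold after 12 h, so that it passed 2-fold at the earlier times and fell short of it at the last. Of the gain in signal at 0.5 h, 46.2% was left at 2 h and 22.1% at 12 h. The level was thus above basal throughout, yet stood at 41.9% of its peak at 12 h rather than at a constant height.

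Ier2 rose at 0.5 h and was below its basal signal afterwards. Its probe set (1416442_at) read 294 in basal cells, then 606 after 0.5 h, 234 after 2 h and 134 after 12 h. The 0.5 h array was the highest and the 12 h array the lowest. The log2 ratio to basal was 1.05 at 0.5 h (2.06-fold higher), -0.33 at 2 h and -1.13 at 12 h (2.19-fold lower). At 12 h the signal was 22.2% of that at 0.5 h.

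Btg2 followed the same course on both of its probe sets. With 1416250_at the basal signal of 104 was followed by 228 after 0.5 h, 110 after 2 h and 47.6 after 12 h. With 1448272_at it was 102, 231, 86.3 and 49.6. Both probe sets were highest at 0.5 h and lowest at 12 h, and they lay on opposite sides of the basal signal at 2 h. The log2 ratios at 0.5 h were 1.14 and 1.19 (2.20-fold and 2.28-fold higher), those at 2 h were 0.09 and -0.24, and those at 12 h were -1.13 and -1.04 (2.18-fold and 2.05-fold lower). The signal at 12 h was 20.9% and 21.4% of that at 0.5 h.

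**Figure D1:**
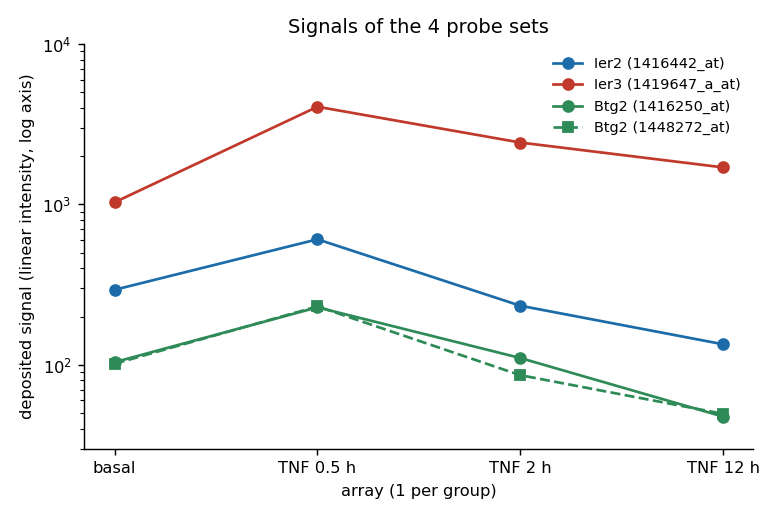
Deposited signal (linear intensity, drawn on a log axis) of the 4 probe sets on each of the 4 arrays, 1 array per group, with the times evenly spaced rather than to scale; the dashed line is the second probe set of Btg2. All 4 lines peak at 0.5 h, Ier3 stays above its basal signal of 1032, and Ier2 and both Btg2 probe sets end below theirs.

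All 3 genes were called higher at 0.5 h, when 2.55% of the 16269 genes were; with signals raised to a higher floor of 102 (the 75th percentile), 0.328% of 7311 genes were. At 2 h only Ier3 of the 3 was called, against 2.58% of all genes higher (0.479% with the higher floor). At 12 h Ier2 and Btg2 were called lower, against 5.18% of all genes (1.72% with the higher floor). The Btg2 signal of 47.6 at 12 h is under that higher floor, where its ratio cannot be measured. From 0.5 to 2 h Ier2 (2.59-fold) and Btg2 (2.07-fold and 2.68-fold) fell, among 2.96% of all genes that did (0.301% with the higher floor), and Ier3 was 1.67-fold lower; the Btg2 step on 1416250_at was short of 2-fold with quantile (-0.97, log2) and loess normalization (-0.98). From 2 to 12 h Btg2 was 2.32-fold lower on 1416250_at and 1.74-fold on 1448272_at, against 3.12% of all genes lower by 2-fold (0.479% with the higher floor); Ier2 was 1.74-fold and Ier3 1.43-fold lower. The comparisons with basal cells share the basal array, and nothing is read from these percentages, since the members were chosen on the same ratios. The split of all calls moved with scaling: at 12 h 454 genes were higher and 842 lower as deposited, 619 and 579 with median centring, 643 and 555 with quantile and 634 and 512 with loess normalization, and at 2 h 420 and 586 became 489 and 442 with loess.

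The falls of Ier2 and Btg2 below basal at 12 h depended on scaling for their call. With median centring, quantile or cyclic loess normalization the 12 h log2 ratio of Ier2 was -0.98, -0.90 and -0.89, and that of Btg2 (1416250_at) -0.97, -0.93 and -0.91, all short of 2-fold and still below basal. The rises at 0.5 h stayed past 2-fold with every scaling, between 1.05 and 1.10 for Ier2, between 1.14 and 1.19 for Btg2 and between 1.98 and 2.06 for Ier3, on the log2 scale and over all alternatives tried.

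In place of replicates, the scatter of other probe sets with a mean log2 signal within 0.5 of the member's gives a scale for these ratios; it contains real changes and is no test. Around Ier3 (681 probe sets) the middle 95% of log2 ratios ran from -0.22 to 0.15 at 0.5 h, from -0.33 to 0.21 at 2 h and from -0.79 to 0.34 at 12 h, so the Ier3 ratio lay above that span at all 3 times. Around Ier2 (3231 probe sets) it ran from -0.39 to 0.33 at 0.5 h, from -0.57 to 0.34 at 2 h and from -0.96 to 0.47 at 12 h. The Ier2 ratio was above the span at 0.5 h, inside it at 2 h and below it at 12 h. Around Btg2 (3986 and 3978 probe sets) the span at 0.5 h ended at 0.48 and 0.50, under both Btg2 ratios. At 12 h it began at -1.08 and -1.10, so that 1416250_at lay just outside and 1448272_at just inside.

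**Figure D2:**
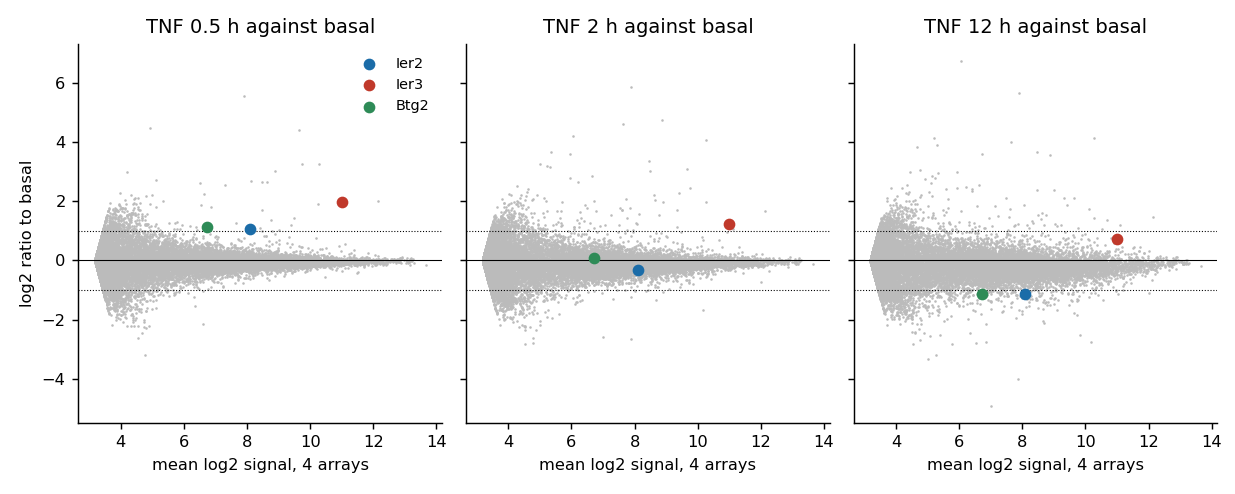
Log2 ratio to basal against the mean log2 signal of the 4 arrays for 16269 genes (grey, 1 point per gene) at each TNF time, with Ier2, Ier3 and Btg2 in colour and dotted lines at 2-fold. The grey cloud widens at low signal and at 12 h; all 3 genes are above the upper line at 0.5 h, and at 12 h Ier2 and Btg2 are under the lower line while Ier3, at 0.72, is between them.

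The other genes listed with the 3 members moved less at 0.5 h, on the probe sets that represent them. The members were chosen for their rise at that time, and at 2 h Ier5 (-0.58, log2) moved farther than Ier2 (-0.33). The IER list was put together by the shared gene name. In it Ier5, a serum- and stress-induced relative of Ier2, had signals of 532, 644, 355 and 367 on its brightest probe set (1417612_at) in basal cells and at 0.5, 2 and 12 h, with a log2 ratio of 0.27 at 0.5 h. Its weaker probe set 1417613_at, at 86.0 in basal cells, was lower by 1.03 (log2) at 2 h, and 1460009_at by 0.54. Ier5l went from 163 to 147, 200 and 99.1 (1419066_at). Neither Ier5 nor Ier5l passed 2-fold against basal on the probe set that represents it. Ier2 and Ier3, the other 2 of 4 in the list, were chosen for their rise, so nothing is read from their count. Without them 0 of 2 rose at 0.5 h, when 2.55% of all genes did, which is near the background.

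Btg2, likewise chosen for its rise, was the 1 of 5 analysed BTG and TOB genes to pass 2-fold. Without it 0 of 4 rose at 0.5 h, near the 2.55% of all genes that did. The others encode antiproliferative proteins of the same family. Btg1 had signals of 1513, 1434, 1323 and 1543 (1426083_a_at), and its second bright probe set had log2 ratios between -0.17 and 0.01. Tob1 went from 498 to 501, 400 and 389 (1423176_at). Tob2 went from 675 to 657, 630 and 511 (1448667_x_at), a probe set type that may also bind other transcripts, and its other 4 probe sets gave log2 ratios at 0.5 h between -0.06 and 0.40. Btg4 stayed between 13.1 and 19.4, close to the floor.

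**Figure D3:**
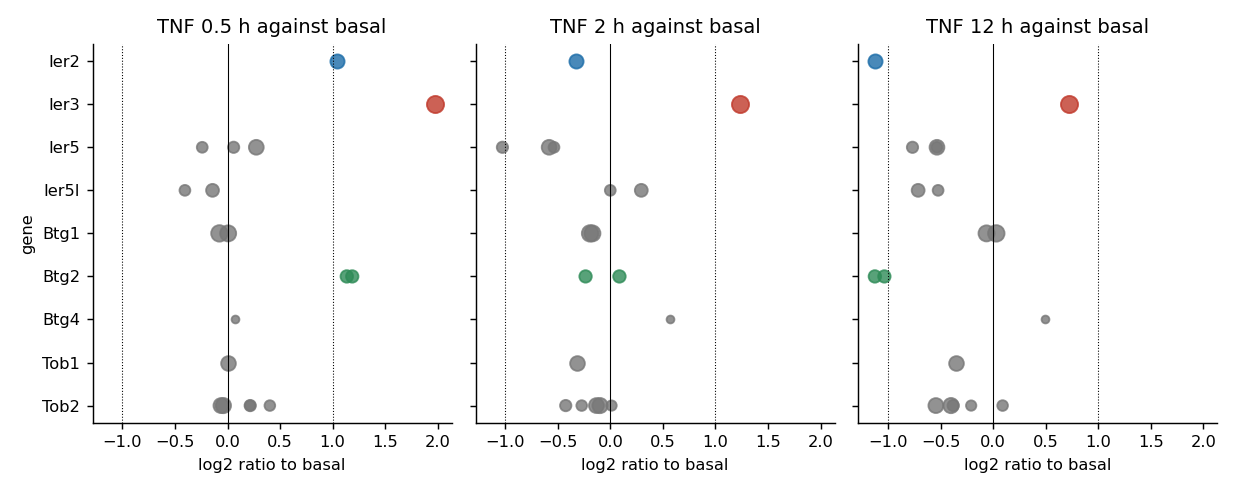
Log2 ratio to basal at each TNF time for the probe sets of the IER, BTG and TOB genes that lay above the floor on all 4 arrays (1 circle per probe set, larger circles for higher mean signal; dotted lines at 2-fold). At 0.5 h only the probe sets of Ier2, Ier3 and Btg2 lie beyond a dotted line. At 2 h only Ier3, above, and 1 weak probe set of Ier5, below, do.

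Genes with the most similar course were taken as the 5 with the smallest Euclidean distance in the log2 ratios to basal at the 3 times (no floor), over 7311 genes with a signal above 102 on some array. For Ier2 these were Csrnp1 (distance 0.35), Klf10 (0.37), Btg2 (0.43), Junb (0.51) and Errfi1 (0.54). For Btg2 they were Junb (0.19), Klf10 (0.26), Ier2 (0.43), Fosl1 (0.45) and Csrnp1 (0.52). Junb and Fosl1 encode AP-1 subunits, Klf10 and Csrnp1 nuclear transcription factors, and Errfi1 a feedback inhibitor of the EGF receptor. Junb, at 323 in basal cells, reached 688 at 0.5 h, was 356 at 2 h and ended at 168, and Klf10 had 377, 755, 372 and 151 in the same order. Ier2 and Btg2 stood in each other's list, as their selection for a shared course would favour.

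The 5 genes nearest to Ier3 lay farther from it. They were Gadd45b (distance 0.72), Lif (0.86), Nfkbia (0.87), Nfkbiz (0.98) and Cxcl5 (1.01), and none was near Ier2 or Btg2 as well. Gadd45b encodes a stress protein acting on MAP kinase signalling, Lif a cytokine, Nfkbia and Nfkbiz IkB proteins and Cxcl5 a neutrophil chemokine. Gadd45b had signals of 446, 1214, 866 and 560, and Nfkbia had 1843, 7476, 5826 and 5134. The distance from Ier3 to Ier2 was 2.60 and that to Btg2 was 2.34. The same 5 genes were nearest to each member under median centring, quantile and cyclic loess normalization.

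**Figure D4:**
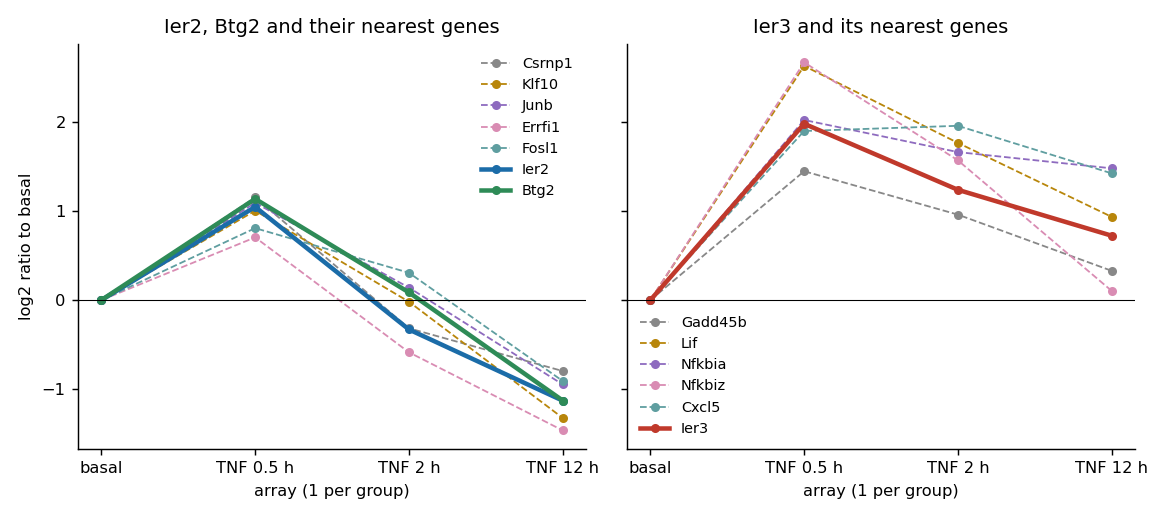
Log2 ratio to basal on the 4 arrays (times evenly spaced, basal at 0) for Ier2 and Btg2 with the genes nearest to them (left) and for Ier3 with its 5 nearest genes (right; thick lines are the members). The lines on the left end between -0.80 and -1.46 at 12 h, whereas those on the right end at or above 0.10.

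The stretch of 250 bases before the transcription start is shown for Ier3 and Btg2, which shared the 0.5 h rise and then parted. They were the 2 members with a promoter sequence available. None was available for Ier2, so its letters were not examined. The sequences are from RefSeq, GRCm38.p6, written 5′ to 3′ on the gene's strand. The Ier3 stretch is chr17:35821463-35821712 on the plus strand and that of Btg2 is chr1:134079156-134079405 on the minus strand. Capitals mark, in Ier3, CCAAT, GGAATTTCC and 1 match to the NF-kB consensus, and, in Btg2, CCAAT, TGACGTCA (the cyclic AMP response element) and GGGCGG (the core of Sp1 sites).
Ier3: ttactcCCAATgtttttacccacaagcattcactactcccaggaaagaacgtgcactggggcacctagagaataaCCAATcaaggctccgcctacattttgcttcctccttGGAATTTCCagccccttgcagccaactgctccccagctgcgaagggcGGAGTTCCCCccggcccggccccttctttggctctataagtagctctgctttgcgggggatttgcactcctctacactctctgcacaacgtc
Btg2: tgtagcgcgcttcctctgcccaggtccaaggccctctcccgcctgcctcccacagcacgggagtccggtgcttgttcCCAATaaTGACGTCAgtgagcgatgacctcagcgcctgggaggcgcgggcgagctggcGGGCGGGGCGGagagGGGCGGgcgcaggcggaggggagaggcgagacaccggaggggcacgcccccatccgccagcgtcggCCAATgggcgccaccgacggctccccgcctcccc
Both strands were searched in each stretch and in those of all 32851 promoters of the RefSeq table. The Ier3 stretch held 1 NF-kB consensus match, from position -92 to -83 and overlapping by 2 bases a GGGCGG at -96 to -91, which is left in lower case outside that match; 7.25% of all promoters held such a match. It also held GGAATTTCC, a kB-like palindrome, at -139 to -131, found in 0.286% of promoters. Neither occurred in the Btg2 stretch, which held TGACGTCA at -166 to -159, found in 1.55% of promoters and not in the Ier3 stretch. Each held CCAAT 2 times (33.8% of promoters), and GGGCGG (32.7%) occurred 3 times in Btg2, 2 of them sharing a base. TATAAA (12.4%), TGANTCA (the AP-1 site, 6.75%) and the CArG box bound by SRF (1.47%) were found in neither. Among the genes nearest to Ier3, 3 had a promoter in the table and 2 of them, Lif and Nfkbia, held the NF-kB consensus, and Nfkbia also GGAATTTCC. Of the 4 near Ier2 with a promoter there (Csrnp1, Btg2, Junb and Errfi1), 0 held the NF-kB consensus and 2, Errfi1 and Btg2 itself, held TGACGTCA. Of the 2 near Btg2 with a promoter there (Junb and Csrnp1), 0 held either. These matches describe letters in the window and were not linked to the arrays by any test.

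Among the pathways around the 3 genes, members of the immediate early factor and NF-kB feedback lists passed 2-fold most often. Of 21 immediate early transcription factors, which do not include the 3 members, 3 rose at 0.5 h and 0 fell, when 2.55% of all genes rose. Their median was 0.41 (log2) beside -0.03 for all genes. The 3 that rose were Fos (from 151 to 526), Junb and Klf10. At 2 h 1 was higher and 6 were lower (median -0.18 beside -0.09), when 2.58% of all genes were higher and 3.6% lower. At 12 h 1 was higher and 8 were lower (median -0.70 beside -0.14), when 2.79% of all genes were higher and 5.18% lower. With median centring 4 were lower at 2 h and 8 at 12 h. The gene that was higher was Nr4a3 at 2 h and Fosb at 12 h, each under the floor in basal cells. With the higher floor 17 of the list were analysed and 0 were higher at 2 or 12 h. Of these 17, 5 were lower at 2 h and 6 at 12 h, beside 0.164% and 1.72% of all genes. Egr3 fell by 4.90 on the log2 scale at 12 h and Nr4a1 went from 736 to 46.1, although neither had risen at 0.5 h (0.26 and 0.03). Egr1, an SRF target, went from 2174 to 3688, 681 and 325, a deeper drop below basal than that of Ier2 or Btg2.

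Of 11 NF-kB feedback inhibitors 5 rose at 0.5 h, 5 at 2 h and 4 at 12 h, while 0, 0 and 1 fell. Of all genes 2.55%, 2.58% and 2.79% were higher at these times, and 5.18% were lower at 12 h. The medians of the list were 0.12, 0.98 and 0.55. With each of the 3 scalings 6 of the 11 were higher at 2 h and 5 at 12 h, and the 1 fall, of the weakly measured Tnip2, was lost. With the higher floor 8 of the list were analysed, and 3, 4 and 4 of them were higher at 0.5, 2 and 12 h. Tnfaip3, encoding A20, went from 268 to 2521, 1463 and 568, and Nfkbiz from 132 to 836, 390 and 141. Nfkbie was highest at 2 h, with signals of 36.5, 86.4, 885 and 576. Like Ier3, Nfkbia and Tnfaip3 were highest at 0.5 h and above basal at 12 h.

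Lists of components that are thought to act before or with the members held 0 or 1 called gene at each time. With 2.55% to 2.79% of all genes higher and 2.96% to 5.18% lower, counts this small in lists of this size are near the background. In the list of ERK cascade and SRF cofactor genes, 10 were analysed and 0 passed 2-fold at 0.5 or 2 h; at 12 h 1, Srf, fell from 497 to 217, a call that was lost with quantile or loess normalization. Of 11 subunits of PP2A, a phosphatase bound by IER proteins, 0 passed 2-fold at any of the 3 times. Of 13 deadenylase genes of the CCR4-NOT and PAN complexes, which include the partners of the Btg2 protein, 0 changed at 0.5 h and 1, Pan2, was lower at 2 and 12 h, with signals of 67.2, 48.9, 27.5 and 29.9; its 12 h call was lost with quantile and loess normalization.

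Btg2 is a p53 target, and 18 others were analysed. Of these 0 were past 2-fold at 0.5 h, near the 2.55% of all genes that were higher, and their median was 0.00 (log2) beside -0.03. At 2 h 1 was higher, the death receptor gene Fas (from 132 to 445), and 2 were lower, Plk3 (from 64.4 to 5.67, under the floor) and Mdm2 (from 255 to 126), whose call was lost with each of the 3 scalings. At 12 h Fas stayed higher and Plk3 lower, and the list's median was -0.49 beside -0.14 for all genes. With the higher floor that median was -0.20 over 14 genes, beside -0.19 for all genes. With median centring, quantile and loess normalization it was -0.34, -0.26 and -0.26, beside 0 for all genes. Of 15 G1 cyclins, CDKs and their inhibitors, genes of the cell cycle step that BTG proteins are known to slow, 0 passed 2-fold at 0.5 and 2 h and 1, the CDK inhibitor gene Cdkn2c, was lower at 12 h (361 to 179), a call lost with each of the 3 scalings, and these counts too are near the background. Of 8 reference genes 0 passed 2-fold, with medians of -0.09, -0.08 and -0.17.

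**Figure D5:**
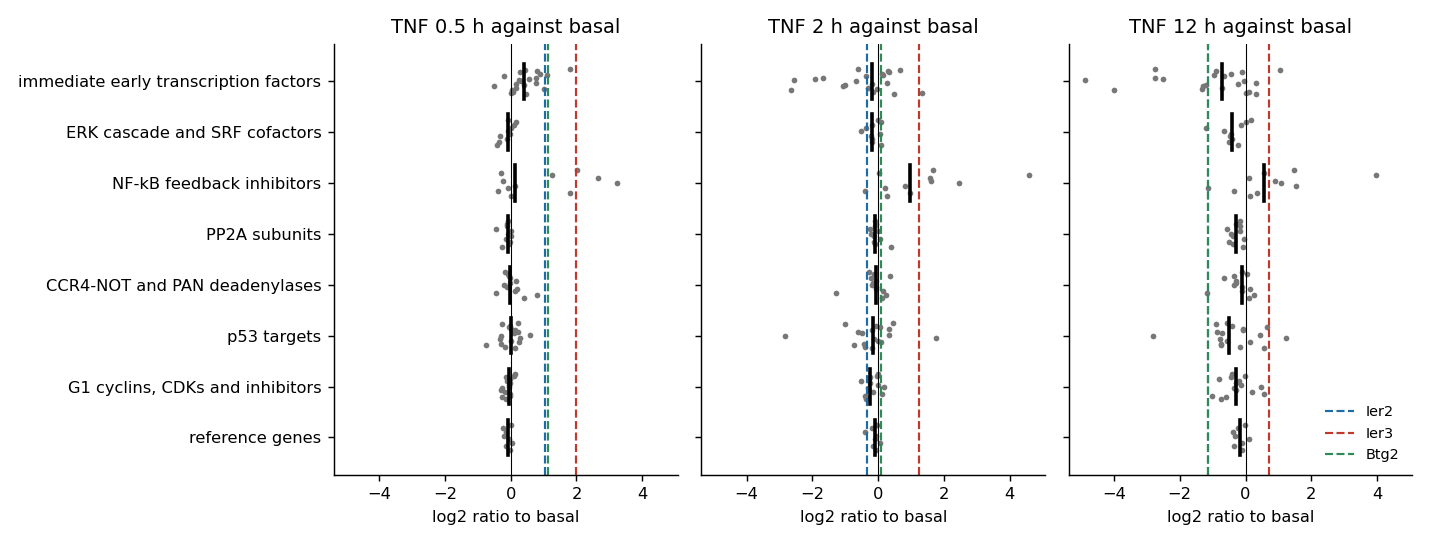
Log2 ratio to basal of each analysed gene (grey points) in 8 pathway lists at each TNF time, with the list's median as a black bar and the ratios of Ier2, Ier3 and Btg2 as dashed vertical lines. Immediate early factors and NF-kB feedback inhibitors spread farthest at 0.5 and 12 h. At 2 h the p53 list, from -2.82 (Plk3, raised to the floor) to 1.75 (Fas), spreads farther than the immediate early factors. At 0.5 h no point of the PP2A, deadenylase, p53, G1 or reference lists reaches the Ier2 line.

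With signals raised to the higher floor, 24 of 7311 genes rose at 0.5 h, Ier2, Ier3 and Btg2 among them. The later ratios of these 24 were taken at the lower floor of 9.08, since several fell under 102. Of the 24, 11 were at least 2-fold above basal at both 2 and 12 h (13 with each scaling), which Ier3 was not. Over all 16269 genes, 2.58% were that high at 2 h and 2.79% at 12 h. Over the 7311 genes with the higher floor, 0.479% and 0.616% were. These shares are for each time alone, while the count of 11 required both times. The signal at 12 h was below basal for 6: Btg2, Fos, Ier2, Junb, Klf10 and Zfp36, the last encoding the RNA-destabilising protein tristetraprolin. The median log2 ratio at 12 h over all genes was -0.14, so a signal below basal was not particular to these 6. The 12 h signal was at least 2-fold below basal for 4 of the 6 without scaling (Btg2, Fos, Ier2 and Klf10) and for 2 with each scaling (Fos and Klf10). Of all genes, 5.18% were lower by 2-fold at 12 h without scaling (1.72% of 7311 with the higher floor). The names below basal were the same 6 under median centring, quantile and cyclic loess normalization. With the floor of 102 kept for 12 h as well, 5 were below basal, Zfp36 being under that floor in basal cells and at 12 h, and 2 (Ier2 and Klf10) were lower by 2-fold.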

How the data were processed

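RNA of 4 samples was measured on Affymetrix Mouse Genome 430 2.0 arrays, 1 per group, from 8 µg of total RNA, per the labels' protocols. The authors deposited 1 linear intensity per probe set and array. How signals were computed or scaled is not given in the sources used, and the number of arrays (1 a group) limits precision. Of 45101 probe sets, 64 were controls and named no gene. The probe annotation gave 1 gene for 34958, several for 932 (not used for names), and left 9211 unlisted and so unnamed here.

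Intensities under the 30th percentile (9.08) were raised to it, genes at that floor on all arrays (1924) were left out, and the brightest probe set of a gene (by mean log2 intensity) stood for it. Genes whose ratio reached 2-fold were called higher (rose) or lower (fell). No test was possible with 1 array a group. Signals of the members' individual probe sets are as deposited. The functions were tested on simulated arrays with little scatter, with known changes larger than 2-fold in bright genes. That test does not cover changes near 2-fold at the signal of Btg2. The members, the 10 pathway and 5 marker lists (167 genes, 4 arrays) and the higher floor were chosen with earlier results of these data known. Symbols not found as such were matched through synonyms in a table of RefSeq genes; list genes without a named probe set were not analysed here.

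Named genes were all probe sets of the members, the 5 nearest genes to each, the IER, BTG and TOB lists, and up to 4 members of each other list with the largest change past 2-fold. Other genes named are those that make up a stated count of list members or of genes that rose at 0.5 h, or are cell type markers. Alternatives were no floor, floors at the 50th and 75th percentile, median centring, quantile and cyclic loess normalization (limma 3.58.1 in R 4.3.3; otherwise Python 3.11.15, numpy 2.4.6 and pandas 2.3.3), and averaging the probe sets of a gene.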

Additional observations from a re-analysis of the deposited data

How the results depend on the processing

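Of 105 recomputed values of the 3 genes (3 genes, 5 comparisons, 7 alternatives), 94 kept their direction and their side of 2-fold, 10 lost the call and 1 changed sign. Many of the 94 could not have differed from the main value, so their number is no measure of robustness. Having no floor, or the lower of the alternative floors, left every value of the 3 genes unchanged. For Ier2 and Ier3, with 1 probe set each and signals above the 75th percentile, that floor and averaging also changed nothing. Only the 3 scalings could move their ratios. The rises at 0.5 h of Ier2, Ier3 and Btg2, the Ier3 level at 2 h and the Ier2 step from 0.5 to 2 h passed 2-fold under all 7. The fall of Ier2 at 12 h, -1.13 on the log2 scale, became -0.98 with median centring, -0.90 with quantile normalization and -0.89 with cyclic loess; that of Btg2, also -1.13, became -0.97, -0.93 and -0.91. The Btg2 step from 0.5 to 2 h became -0.97 with quantile normalization and -0.98 with loess. With the floor at the 75th percentile Btg2 came to -0.028 at 12 h against basal and -0.11 from 2 to 12 h, since its 12 h signal was raised to that floor. The uncalled Btg2 ratio at 2 h (0.09) was -0.075 when its probe sets were averaged.

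Counts over all genes depended mainly on the floor, given here as higher and lower for 0.5, 2 and 12 h against basal, then for the steps from 0.5 to 2 h and from 2 to 12 h. With no floor they were 1643 and 1754, 1604 and 1999, 1622 and 2338, 1627 and 1951, and 1788 and 1879. With the floor at the 50th percentile they were 60 and 50, 100 and 95, 121 and 304, 86 and 84, and 79 and 126. With the floor at the 75th percentile they were 24 and 1, 35 and 12, 45 and 126, 19 and 22, and 10 and 35. With probe sets averaged per gene 307 were lower at 0.5 h, 276 higher and 383 lower at 2 h, 267 higher in the step to 2 h, and 300 higher and 325 lower in the step to 12 h. At 12 h against basal 555 were lower with quantile normalization and 512 with loess, beside 842 without scaling. The causes were not tested. Signal over background limits Btg2 most, whose 12 h signals were 47.6 and 49.6. No paired analysis was possible because each group has 1 array.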
